A study of Mus musculus with 13 samples.

Results

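The 45 genes described here, 20 S phase and 25 M phase genes that mouse cells use to copy their DNA and to divide, were followed through 13 tumors. They were chosen by name, and each was read from the 1 probe set that carries its symbol alone. Of the 45, 43 were measured (19 S phase and 24 M phase genes) among the 22180 genes of the array. No such probe set was found for the cyclins Ccnb1 and Ccne2, so they have no value here.

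The tumors grew under the skin of male C57BL/6 mice after injection of Panc02, a line of mouse pancreatic ductal adenocarcinoma, so all groups share 1 line and a site outside the pancreas. Mice of the DIO groups (diet-induced obesity) ate a diet high in fat, and HMB, a product of leucine breakdown whose full name is β-hydroxy-β-methylbutyrate, was mixed into the food. The groups were DIO + HMB (n = 4), DIO (n = 3), control + HMB (n = 3) and control (n = 3), the last 2 on a low-fat control diet, with 1 mouse and 1 tumor behind every array. Mice of the study also received gemcitabine, a nucleoside drug that stalls DNA replication, or its vehicle, and the labels do not give which of these the 13 mice had. RNA came from whole tumors, so fewer dividing cells and less of each RNA per cell cannot be told apart.

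A cell passes S phase, in which its DNA is copied once, and later M phase, in which the copies are pulled apart. Before S phase the origin recognition complex (Orc1, Orc6), Cdc6 and Cdt1 load the MCM helicase (Mcm2 to Mcm7) onto origins, and Cdc45 with the GINS proteins (Gins1, Gins2) then switches the helicase on. In M phase the kinase Cdk1 with cyclins starts division, the Ndc80 complex ties chromosomes to the spindle, and Bub1, Bub1b, Ttk and Mad2l1 hold anaphase back until all are attached. S phase genes are switched on by E2F factors through E2F sites. Many M phase genes carry a CHR element (cell cycle genes homology region), often with CCAAT boxes, through which the MuvB complex with B-Myb and FOXM1 acts. RNAs of both kinds are scarce in resting cells, which is why they are read as markers of proliferation in tumors.

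The promoters of both kinds of genes are shown first, because the S phase and M phase genes are treated apart below and differ in how often their promoters hold the words searched here. Windows of 300 bases (250 before the annotated start, 50 from the start on, so that the start is base 251) were taken from RefSeq, build GRCm38.p6, and 35 of the 45 listed genes matched, 15 S phase genes with 16 windows and 20 M phase genes with 20. The E2F words searched were TTTGGCGC, TTTCCCGC, TTTCGCGC and TTTGCCGC, the CHR words TTTGAA and TTCGAA, and the CCAAT box CCAAT, each on both strands. E2F words can overlap each other, and a CHR word and a CCAAT box can share a base at their ends. In the following 3 S phase promoters the capitals mark E2F words, and in Mcm5 they mark a pair of overlapping ones.
Mcm3 promoter (chr1:20820263-20820562, minus strand): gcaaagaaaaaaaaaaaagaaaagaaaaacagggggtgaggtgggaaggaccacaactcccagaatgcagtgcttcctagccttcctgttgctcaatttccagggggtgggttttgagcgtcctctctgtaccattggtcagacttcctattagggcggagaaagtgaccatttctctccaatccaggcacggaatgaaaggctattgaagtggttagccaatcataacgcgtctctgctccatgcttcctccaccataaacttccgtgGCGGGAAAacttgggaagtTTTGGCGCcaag
Mcm5 promoter (chr8:75109259-75109558, plus strand): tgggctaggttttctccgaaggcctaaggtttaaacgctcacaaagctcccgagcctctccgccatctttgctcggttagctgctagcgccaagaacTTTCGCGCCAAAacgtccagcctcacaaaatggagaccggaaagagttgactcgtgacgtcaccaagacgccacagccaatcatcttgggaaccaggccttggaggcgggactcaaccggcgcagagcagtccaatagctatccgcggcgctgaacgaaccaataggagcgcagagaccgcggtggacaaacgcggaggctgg
Orc1 promoter (chr4:108579204-108579503, plus strand): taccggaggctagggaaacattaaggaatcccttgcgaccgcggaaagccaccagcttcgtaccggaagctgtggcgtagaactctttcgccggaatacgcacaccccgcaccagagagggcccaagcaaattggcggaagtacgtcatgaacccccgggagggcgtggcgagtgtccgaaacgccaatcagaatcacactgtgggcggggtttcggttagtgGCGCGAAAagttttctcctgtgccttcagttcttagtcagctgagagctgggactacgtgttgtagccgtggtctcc

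In the following 4 M phase promoters the capitals mark CHR words. They belong to the M phase members named most often below.
Ndc80 promoter (chr17:71526808-71527107, minus strand): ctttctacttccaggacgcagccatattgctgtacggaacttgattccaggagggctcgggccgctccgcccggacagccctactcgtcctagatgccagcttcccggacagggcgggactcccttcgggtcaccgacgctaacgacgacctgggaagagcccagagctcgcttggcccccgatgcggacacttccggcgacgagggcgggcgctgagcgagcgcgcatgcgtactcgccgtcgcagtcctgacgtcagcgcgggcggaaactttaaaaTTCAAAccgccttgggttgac
Top2a promoter (chr11:99024140-99024439, minus strand): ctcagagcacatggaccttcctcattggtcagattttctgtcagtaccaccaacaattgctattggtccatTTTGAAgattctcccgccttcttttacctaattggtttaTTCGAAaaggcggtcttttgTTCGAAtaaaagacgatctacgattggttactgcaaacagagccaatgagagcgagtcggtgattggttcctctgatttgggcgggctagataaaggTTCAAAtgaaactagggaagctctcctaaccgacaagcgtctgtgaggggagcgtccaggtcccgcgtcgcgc
Bub1 promoter (chr2:127831810-127832109, minus strand): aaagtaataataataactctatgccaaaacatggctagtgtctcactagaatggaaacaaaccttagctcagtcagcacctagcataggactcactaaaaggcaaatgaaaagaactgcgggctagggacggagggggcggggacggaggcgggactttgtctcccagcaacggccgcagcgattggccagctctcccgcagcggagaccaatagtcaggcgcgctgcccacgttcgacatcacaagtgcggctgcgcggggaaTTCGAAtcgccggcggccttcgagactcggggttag
Mki67 promoter (chr7:135716330-135716629, minus strand): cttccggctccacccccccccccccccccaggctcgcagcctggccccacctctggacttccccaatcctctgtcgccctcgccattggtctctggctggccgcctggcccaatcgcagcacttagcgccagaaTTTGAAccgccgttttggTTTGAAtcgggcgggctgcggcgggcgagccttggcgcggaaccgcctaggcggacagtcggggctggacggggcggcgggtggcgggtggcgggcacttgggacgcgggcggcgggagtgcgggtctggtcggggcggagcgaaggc

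An E2F word was found in 7 of 16 S phase windows (43.8%) and in 1 of 20 M phase windows (5.0%), that of Cdk1, against 744 of all 32851 windows (2.26%). A CHR word was found in 15 of 20 M phase windows (75.0%) and in 3 of 16 S phase windows (18.8%), against 19.2% of all windows. The Mki67 window held CHR words from bases 135 and 153, and the Ndc80 window held its only one on the other strand from base 280, past the start. CCAAT was present in 80.0% of M phase and 62.5% of S phase windows, against 37.4% of all windows, and a CHR word together with CCAAT in 70.0% and 18.8%, against 7.52%. These are matches of letters and not measured binding sites.

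Across all arrays both kinds of genes moved as 1 block, and the tumors within a group differed about as much as the group means did. A score was formed for each array as the mean over the S phase, or the M phase, genes of the log2 value minus the gene's mean over the 13 arrays, so that 0 is the average tumor and 1 is a 2-fold difference. The S phase score was -0.19, -0.39, 0.08 and 0.30 in DIO + HMB tumors 1 to 4, 0.16, -0.08 and 0.24 in DIO, 0.11, 0.08 and -0.03 in control + HMB, and -0.33, -0.04 and 0.09 in control. The M phase score was -0.30, -0.47, 0.10 and 0.26 in DIO + HMB, 0.21, -0.11 and 0.40 in DIO, 0.09, -0.06 and -0.0015 in control + HMB, and -0.22, -0.03 and 0.13 in control. All 4 groups overlapped on both scores. DIO + HMB held the tumor with the lowest scores, replicate 2, and the tumor with the highest S phase score, replicate 4, whereas the 3 control + HMB tumors lay close together.

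**Figure D1:**
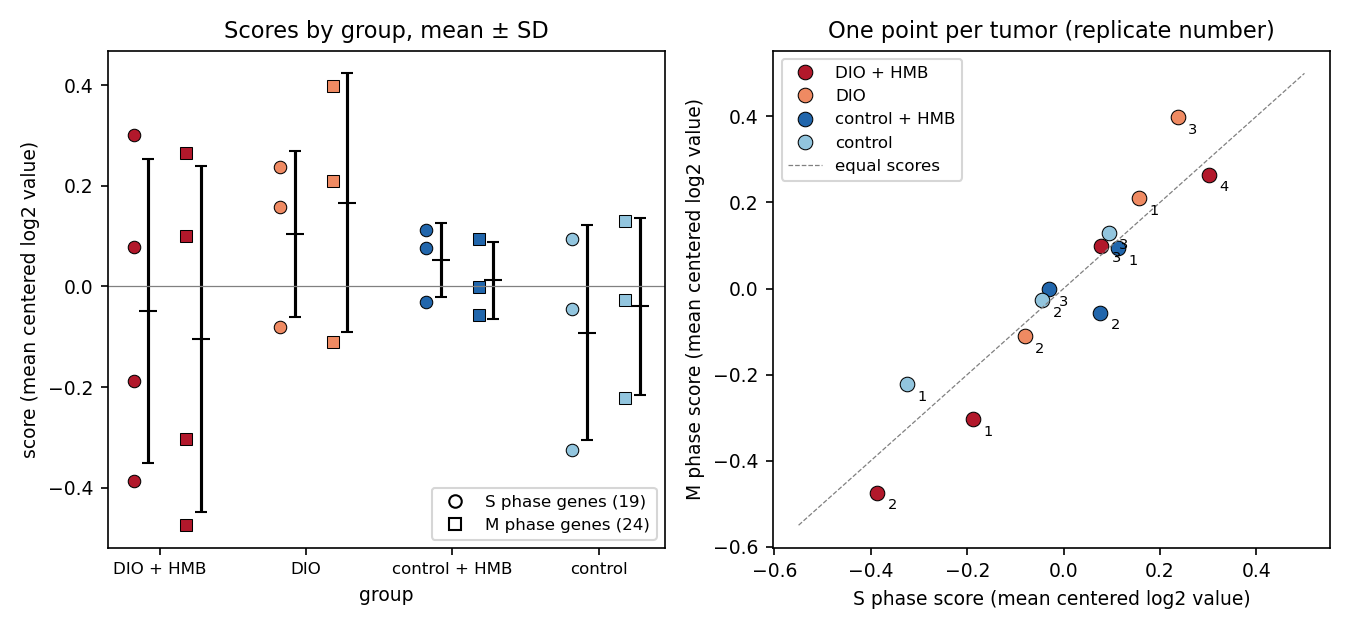
The left panel plots the S phase score (circles) and the M phase score (squares) of each tumor by group, with the group mean ± SD as bars, and the right panel plots the M phase score against the S phase score, 1 point for each of the 13 tumors. In DIO + HMB the M phase score ran from -0.47 to 0.26, and its range overlapped those of the other 3 groups while the points follow the line of equal scores.

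By group, the S phase score averaged -0.05 ± 0.30 in DIO + HMB, 0.10 ± 0.17 in DIO, 0.05 ± 0.07 in control + HMB and -0.09 ± 0.21 in control (SD). The M phase score averaged -0.10 ± 0.34 in DIO + HMB, 0.17 ± 0.26 in DIO, 0.01 ± 0.08 in control + HMB and -0.04 ± 0.18 in control (SD). The pooled SD within groups was 0.22 for the S phase and 0.25 for the M phase score, so the differences between group means were of about the size of the spread between tumors of 1 group. Within DIO + HMB the highest and lowest tumors were 1.61-fold apart in S phase genes and 1.67-fold apart in M phase genes, and within control + HMB 1.1-fold and 1.11-fold apart. As a description over the 13 arrays, which share the same normalization, both scores correlated at r = 0.94 (Spearman's rho 0.96), and at 0.96 after the group means were removed.

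Gene by gene the same tumors stood at the ends. DIO + HMB replicate 2 had the lowest of the 13 values for 21 of 24 M phase and 9 of 19 S phase genes, and was above the gene's mean for 0 of 43. DIO + HMB replicate 1 was above the gene's mean for 2 of 43. DIO + HMB replicate 4 was above it for 43 of 43 genes, DIO replicate 3 for 42 and DIO replicate 1 for 40. DIO replicate 3 had the highest value for 14 M phase and 5 S phase genes, while control replicate 1 had the lowest value for 8 S phase genes and 1 M phase gene. The heat map of centered values shows these tumors as whole columns, with few genes that break the column.

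**Figure D2:**
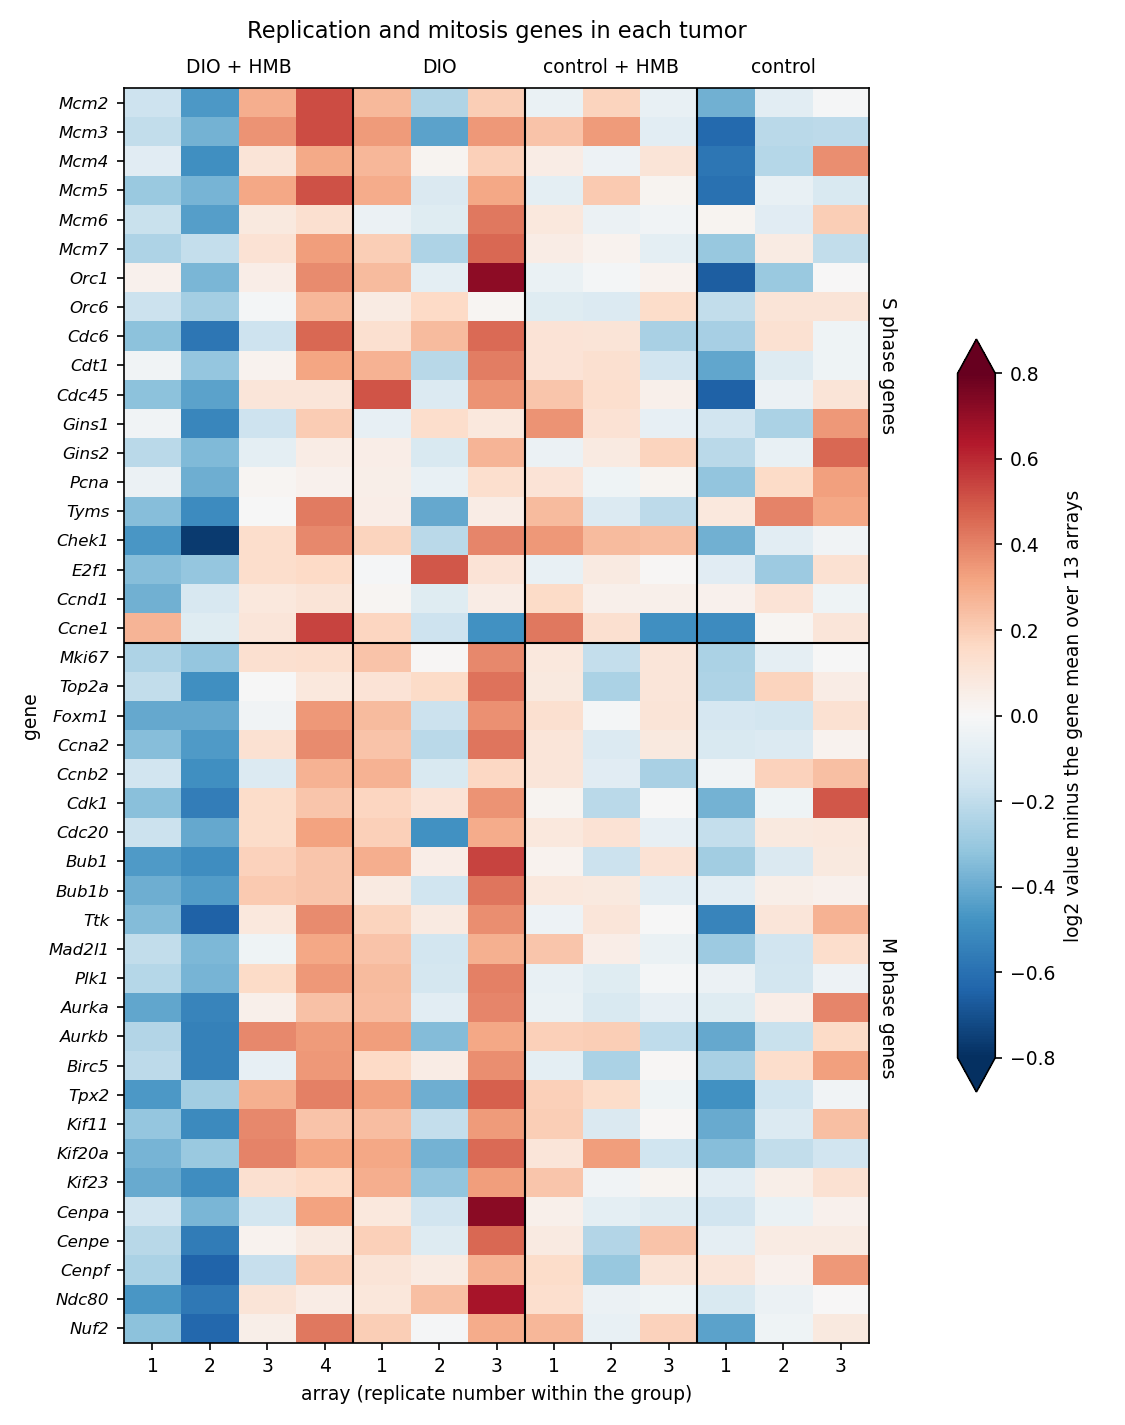
Each row is 1 of the 43 measured genes and each column 1 of the 13 tumors, grouped as DIO + HMB, DIO, control + HMB and control, and the color gives the log2 value minus the gene's mean over all arrays. DIO + HMB replicates 1 and 2 are blue from top to bottom apart from 2 genes of replicate 1, whereas DIO + HMB replicate 4 and DIO replicate 3 are red in 43 and 42 rows.

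The M phase genes were the tighter set. The median correlation between pairs of genes over the 13 arrays was 0.79 among M phase genes, 0.56 among S phase genes and 0.66 between an S phase and an M phase gene, and 0.81, 0.65 and 0.74 after removal of the group means. Closest to the rest of its own list were Ccna2, the cyclin of late S phase and mitotic entry (r = 0.96), the transcription factor Foxm1 (0.94) and the checkpoint kinase Bub1 (0.94). Farthest were regulators of entry into S phase, namely Ccne1, which encodes cyclin E1 (0.32), E2f1 (0.44) and Ccnd1, which encodes cyclin D1 (0.50), together with Tyms, the thymidylate synthase that supplies dTTP (0.55). Ccne1 had an order of tumors of its own. Ccne1 was 5.44, 5.08, 5.27 and 5.71 in DIO + HMB, 5.34, 5.01 and 4.69 in DIO, 5.60, 5.30 and 4.69 in control + HMB, and 4.67, 5.19 and 5.27 in control on the log2 scale. The tumor with the highest M phase score, DIO replicate 3, was thus near the bottom for Ccne1, and the groups overlapped.

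Some tumors also stood apart in markers of other cell types, which bears on the comparisons with DIO + HMB. DIO + HMB replicate 1 had a B cell marker score of 3.56 (the other 12 arrays lay between -0.65 and 0.30) and a T cell score of 1.27. That tumor also had the highest ductal epithelium (1.05), keratinocyte (0.73) and neutrophil (0.55) scores. DIO + HMB replicate 2 had the highest adipocyte score, 2.38. DIO replicate 3, the tumor highest in M phase genes, was the lowest for fibroblast (-1.12), T cell (-0.73) and neutrophil (-0.62) markers. Skeletal muscle markers scored 3.97 in DIO + HMB replicate 3, 2.23 in DIO replicate 1 and 2.155 in control replicate 3. Of the ductal epithelial markers, Krt8 (8.75 to 9.62) and Krt18 (8.99 to 9.97) were high in every tumor. Sox9 (8.82 to 9.96), Msln (7.59 to 8.99) and Cdh1 (7.04 to 8.25) were also far above the array medians over all probe sets (3.65 to 3.75) in every tumor. Krt19 (3.28 to 6.56) and Krt7 (2.70 to 7.15) reached below those medians, and Epcam (3.84 to 6.47) reached down to just above them. The part of other cells in the results below was not tested.

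The comparison of DIO + HMB with DIO asked what HMB did in obese mice, and here almost all members were lower without any of them passing the test. Of the M phase genes, 24 of 24 were lower in DIO + HMB (median log2 difference -0.28), and of the S phase genes 18 of 19 (median -0.15), against a median of -0.01 over all 22180 genes, of which 47.9% were higher. In limma, 0 of 43 members and 0 of all genes (0%) passed an adjusted p of 0.05, and the lowest adjusted p among the members was 0.705. At an unadjusted p under 0.05, 3 members were lower and 0 higher, against 3.75% and 3.34% of all genes. Without overlap between the groups 1 member was lower and 0 higher, against 4.22% and 3.57%. The genes vary together from tumor to tumor, so these counts are not counts of separate observations.

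The 3 members were kinetochore, chromosome and checkpoint genes. Ndc80, which encodes the microtubule-binding subunit of the kinetochore, was 7.86, 7.75, 8.43 and 8.39 in DIO + HMB, against 8.42, 8.57 and 8.99 in DIO. DIO + HMB replicates 1 and 2 were below every other tumor of the study, and replicate 3 overlapped DIO. The difference was -0.55 (SE 0.19, 95% interval -0.95 to -0.15, limma adjusted p = 0.705). Top2a, the topoisomerase that untangles chromosomes, was 9.16, 8.86, 9.35 and 9.44 in DIO + HMB and 9.47, 9.51 and 9.79 in DIO. It was the single member whose groups did not overlap, with a gap of less than the spread within either group and a difference of -0.38 (SE 0.17, limma adjusted p = 0.705). Bub1, a spindle checkpoint kinase, was 6.24, 6.21, 6.88 and 6.92 in DIO + HMB and 6.99, 6.76 and 7.24 in DIO, a difference of -0.43 (SE 0.20, limma adjusted p = 0.705). For Bub1 and Ndc80 alike, DIO + HMB replicates 1 and 2 were below every DIO tumor and replicates 3 and 4 were within or near the DIO range.

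**Figure D3:**
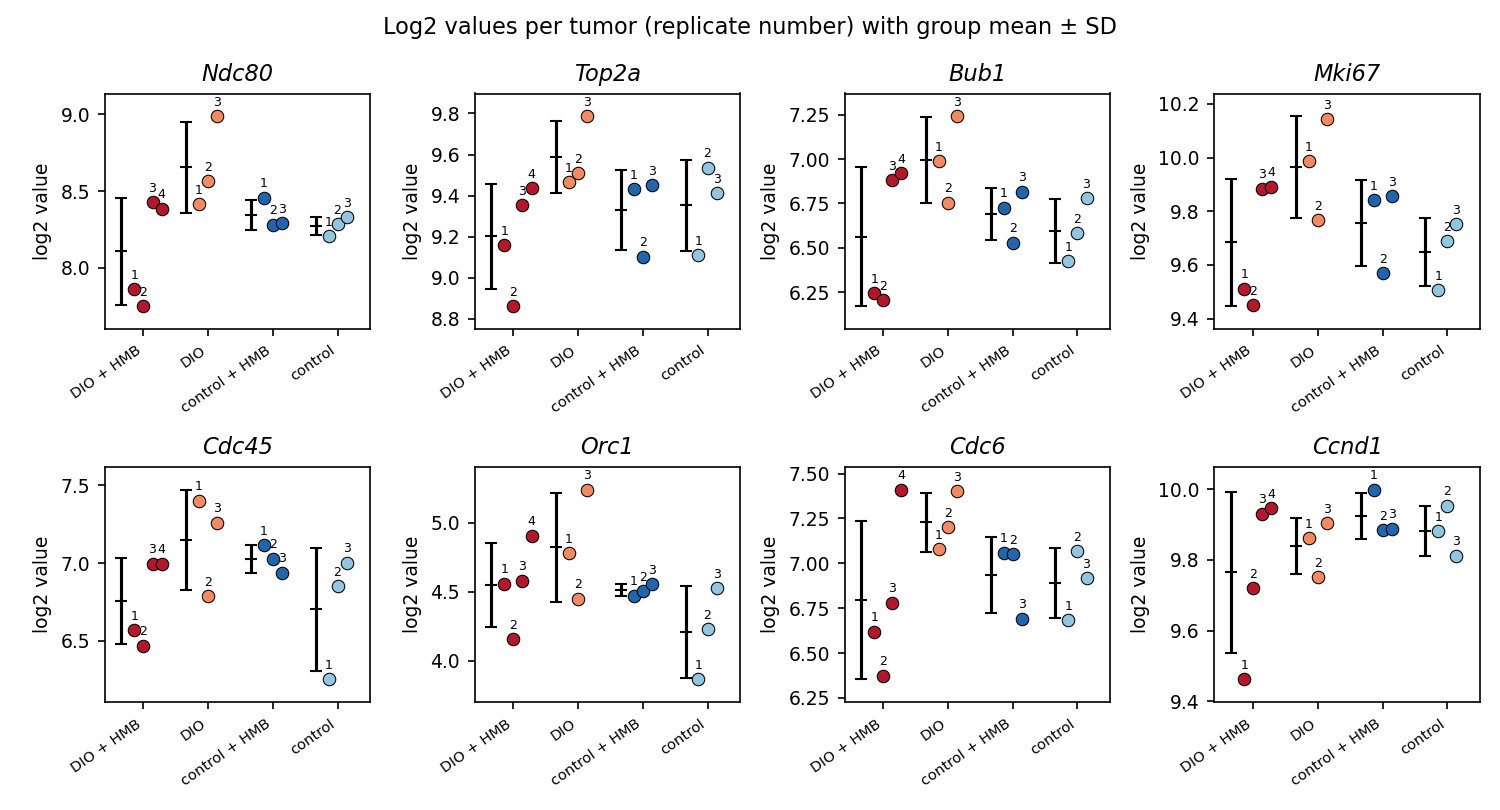
Each panel plots the log2 values of 1 gene in the 13 tumors by group (points, with replicate numbers) and the group mean ± SD (bars), with an axis of its own that does not start at 0. In Ndc80, Bub1 and Mki67, DIO + HMB replicates 1 and 2 lie below all DIO tumors and replicates 3 and 4 lie close to DIO values.

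Mki67, the antigen Ki-67 used to count dividing cells, gave 9.51, 9.45, 9.88 and 9.89 in DIO + HMB and 9.99, 9.77 and 10.14 in DIO (difference -0.28, SE 0.15, limma adjusted p = 0.717). The other kinetochore and centromere genes, Cenpf, Cenpe, Cenpa and Nuf2, differed by -0.37, -0.35, -0.30 and -0.28, and all 5 genes of the group were lower (median -0.35). Genes of mitotic entry (4 of 4 lower, median -0.25) ran from -0.34 for Cdk1 to -0.22 for Ccna2. The mitotic kinases and their partners (5 of 5, median -0.20) ran from -0.35 for the spindle pole kinase Aurka to -0.11 for Aurkb, the kinase of the chromosomal passenger complex. The spindle motors Kif11, Kif20a and Kif23 differed by -0.18, -0.12 and -0.25, and Cdc20, the activator of anaphase, by -0.03, the smallest of the 24. No adjusted p in these groups was under 0.705.

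Among the S phase genes the loading and firing factors had a lower median than the helicase itself, a contrast that was not tested. The 7 origin genes had a median of -0.21 and the 6 MCM genes one of -0.13, from -0.20 for Mcm4 to -0.01 for Mcm3. Cdc6 was 6.62, 6.37, 6.78 and 7.41 in DIO + HMB and 7.08, 7.20 and 7.40 in DIO (difference -0.43, SE 0.21, limma adjusted p = 0.707). Replicate 4 of DIO + HMB was the highest of all tumors for this gene, and the other 3 were below all DIO tumors. Cdc45 was 6.57, 6.47, 6.996 and 6.99 in DIO + HMB and 7.40, 6.78 and 7.26 in DIO (difference -0.39, SE 0.21, limma adjusted p = 0.715). E2f1, which drives entry into S phase, gave 6.02, 6.05, 6.50 and 6.52 in DIO + HMB and 6.35, 6.86 and 6.47 in DIO (difference -0.29, SE 0.17, limma adjusted p = 0.737). Ccnd1 differed by -0.07 (SE 0.13) and Tyms by -0.01 (SE 0.21), and Ccne1 was the exception of the list, 0.36 higher in DIO + HMB (SE 0.24, limma adjusted p = 0.755).

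The lower medians kept their sign under each other scaling, being -0.27 and -0.40 with each array centered on its median, -0.17 and -0.30 after quantile normalization of the genes and -0.34 and -0.44 with the array's SD as a covariate, while centering moved the median of all genes to -0.13. They depended on which tumors were kept. DIO + HMB replicates 1 and 2 had the lowest M phase scores of the 13 tumors (-0.30 and -0.47). Leaving them out was chosen after seeing the data and was bound to raise the DIO + HMB values. The median was then 0.04 for S phase and 0.01 for M phase genes. With DIO replicate 3, the tumor of highest M phase score, left out as well it was 0.13 and 0.11, higher in DIO + HMB. Single tumors also moved the S phase and M phase medians, to -0.06 and -0.16 without DIO + HMB replicate 2, -0.06 and -0.18 without DIO replicate 3, and -0.27 and -0.40 without either DIO + HMB replicate 4 or DIO replicate 2. Over the whole marker lists, 10 of 10 measured B cell, 9 of 9 T cell, 9 of 9 adipocyte, 8 of 9 endothelial, 7 of 8 neutrophil, 8 of 10 fibroblast, 7 of 10 macrophage and 5 of 7 keratinocyte markers were higher in DIO + HMB than in DIO, as were 3 of 8 ductal, 4 of 10 skeletal muscle and 1 of 3 erythroid ones. The B cell score ran from -0.46 to 3.56 in DIO + HMB and -0.65 to -0.50 in DIO, and the T cell score from -0.19 to 1.27 in DIO + HMB and -0.73 to -0.27 in DIO. The adipocyte score ran from -0.995 to 2.38 in DIO + HMB and -1.43 to 0.42 in DIO.

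**Figure D4:**
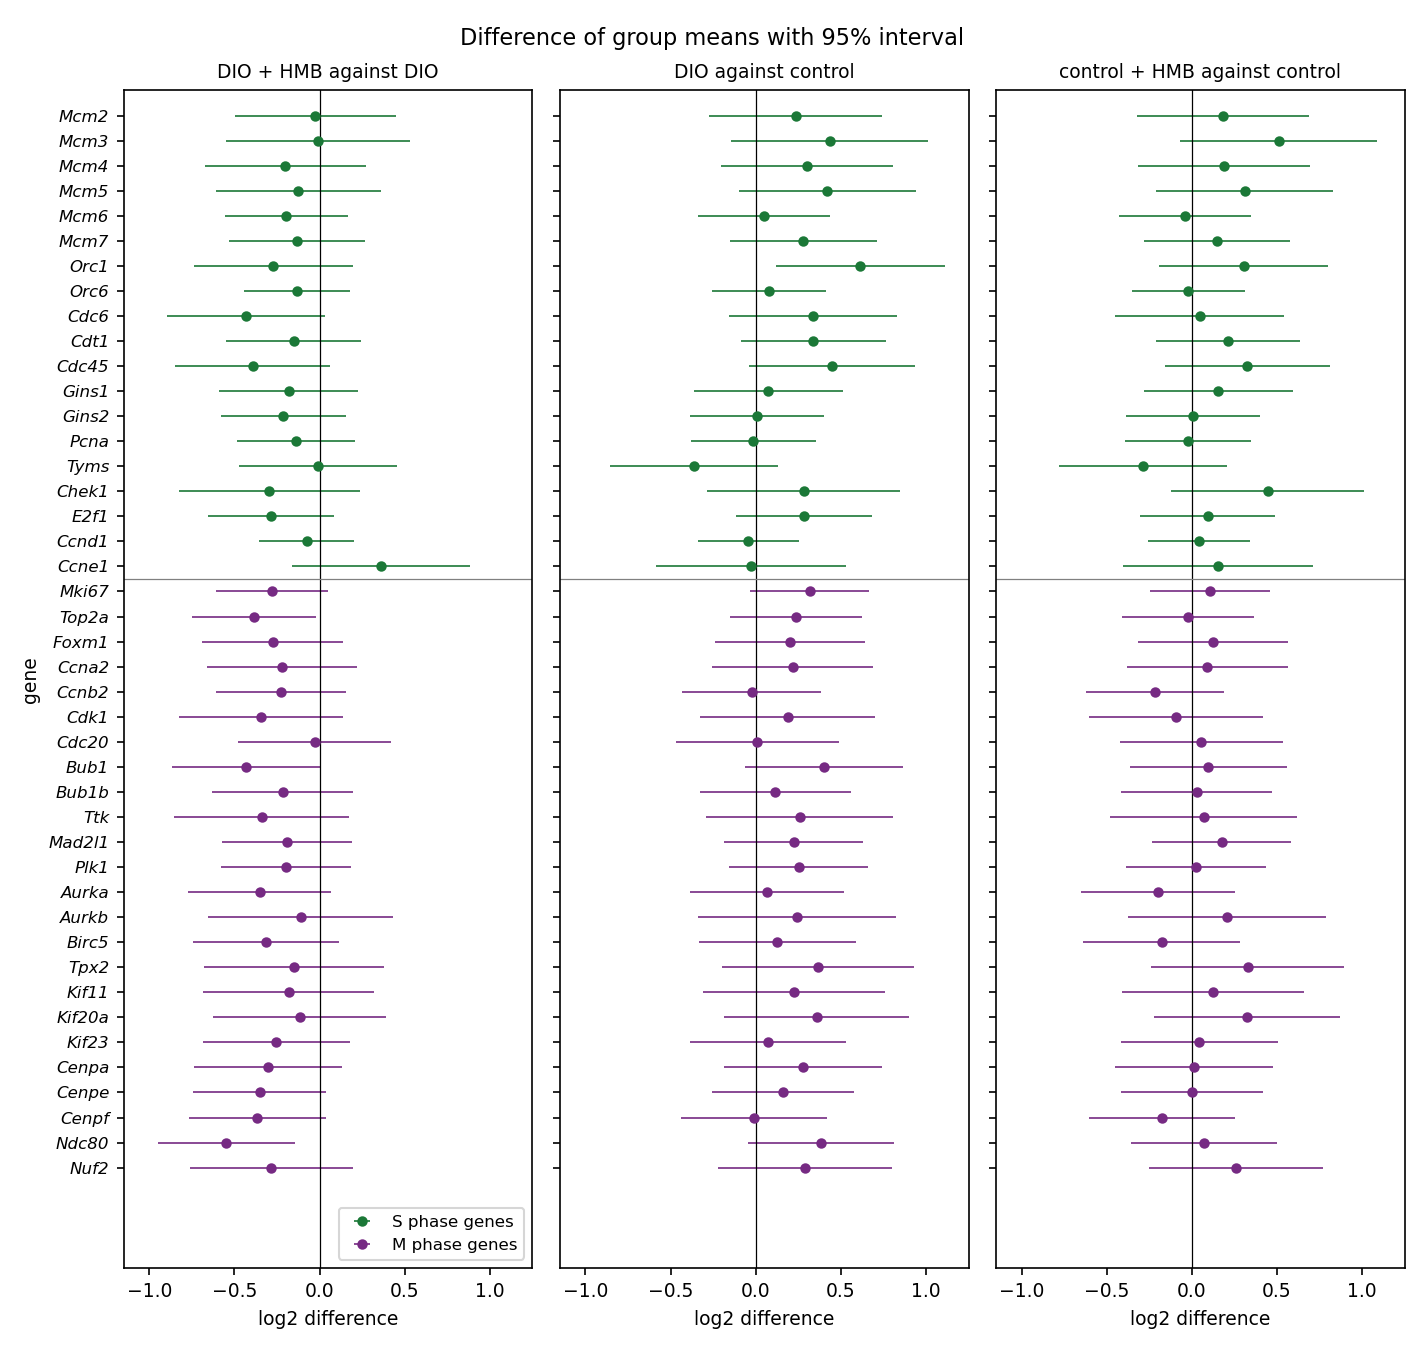
Points give the log2 difference between group means of each measured gene and bars its 95% interval in limma, for DIO + HMB against DIO, DIO against control and control + HMB against control, with S phase genes in green above and M phase genes in purple below. The intervals hold 0 for 40, 42 and 43 of the 43 genes.

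Genes of the same pathways outside the list were counted in the same way. Of 55 measured further mitosis genes, 54 were lower in DIO + HMB than in DIO (median -0.25, 6 lower and 0 higher at an unadjusted p under 0.05), and of 42 further replication genes 32 were lower (median -0.11, 2 lower and 0 higher at that p). Of 19 regulators of the cycle 13 were lower (median -0.06, 1 lower and 0 higher at that p), and of 7 inhibitors of cyclin-dependent kinases 7 (median -0.06, 0 at that p), beside 3.75% of all genes lower and 3.34% higher at that p. None of these genes passed the adjusted test. Spc25, a subunit of the same kinetochore complex as Ndc80, was 6.65, 6.23, 6.68 and 6.68 in DIO + HMB and 7.04, 6.85 and 7.18 in DIO (difference -0.46, SE 0.15, limma adjusted p = 0.705). Its groups did not overlap, and its value in 3 of the 4 DIO + HMB tumors was nearly the same. Pola1, the catalytic subunit of DNA polymerase alpha, differed by -0.39 (SE 0.15), and Wee1, the kinase that holds Cdk1 back, by -0.50 (SE 0.21). Cdkn2a, the locus of p16 and p19ARF, differed by -0.25 (SE 0.13). Its signal was dim and the groups overlapped, at 4.35, 4.54, 4.71 and 4.23 in DIO + HMB and 4.84, 4.65 and 4.62 in DIO.

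In DIO against control, which asked what obesity did, most members were higher in DIO, again with 0 of 43 past the adjusted threshold (0% of all genes, lowest adjusted p of a member 0.601). Of the S phase genes 15 of 19 (median 0.28) and of the M phase genes 22 of 24 (median 0.22) were higher, against 53.8% of all genes (median 0.02). At an unadjusted p under 0.05, 1 member was higher and 0 lower, against 4.31% and 3.44% of all genes. Without overlap, 3 members were higher and 1 lower, against 6.04% and 4.95%. Orc1, the largest subunit of the origin recognition complex, was 4.78, 4.45 and 5.24 in DIO and 3.87, 4.23 and 4.53 in control. Orc1 was the dimmest member (percentile 50.6 of all genes). Its lowest control value was close to the array medians over all probe sets (3.65 to 3.75), which include probe sets without a gene symbol. DIO replicate 2 lay inside the control range, and the difference was 0.61 (SE 0.23, 95% interval 0.12 to 1.11, limma adjusted p = 0.601).

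The 3 members higher without overlap were Cdc6, Mki67 and Ndc80. Mki67 was 9.99, 9.77 and 10.14 in DIO and 9.51, 9.69 and 9.75 in control, a difference of 0.32 (SE 0.16, limma adjusted p = 0.662). Its lowest DIO tumor, replicate 2, was just above the highest control. Ndc80 was 8.42, 8.57 and 8.99 in DIO and 8.21, 8.28 and 8.33 in control (difference 0.38, SE 0.20, limma adjusted p = 0.667). Cdc6 differed by 0.34 (SE 0.23), and Tyms was the member lower without overlap, 7.17, 6.71 and 7.18 in DIO and 7.20, 7.51 and 7.43 in control (difference -0.36, SE 0.23, limma adjusted p = 0.723). Tyms makes the thymidine nucleotide and lay against all 6 MCM genes, which were higher in DIO (median 0.29, from 0.05 for Mcm6 to 0.43 for Mcm3). Mcm5 differed by 0.42 (SE 0.24), Cdc45 by 0.45 (SE 0.22) and Bub1 by 0.40 (SE 0.21), whereas Top2a differed by 0.23 (SE 0.18) and Ccnd1 by -0.04 (SE 0.14).

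All 7 origin genes, 5 of 5 checkpoint genes, 5 of 5 mitotic kinases and partners and 3 of 3 motors were higher in DIO, with medians of 0.34, 0.22, 0.24 and 0.22. Kinetochore genes were higher in 4 of 5 (median 0.28) and genes of mitotic entry in 3 of 4 (0.19), whereas 1 of 3 genes of the fork, nucleotide supply and S phase checkpoint (median -0.014) and 1 of 3 regulators of entry into S phase (median -0.028) were higher. With the array's SD as a covariate the S phase and M phase medians were 0.066 and 0.024, the origin, checkpoint and kinase medians 0.12, 0.026 and 0.0035, and the motor median -0.041. Leaving out control replicate 1 brought the S phase and M phase medians to 0.12 and 0.11, leaving out DIO replicate 3 to 0.15 and 0.12, and leaving out DIO replicate 2 the M phase median to 0.36. Lymphocyte markers moved with the comparison, 1 of 9 T cell and 2 of 10 B cell markers being higher in DIO, as were 1 of 7 keratinocyte and 6 of 8 ductal markers. The T cell score ran from -0.73 to -0.27 in DIO and -0.22 to 0.37 in control, and the B cell score from -0.65 to -0.50 in DIO and -0.34 to -0.30 in control, so neither overlapped, and their part in the result was not tested. Of the pathway genes outside the list, 45 of 55 mitosis genes (median 0.16), 27 of 42 replication genes (0.17), 17 of 19 regulators (0.19) and 6 of 7 inhibitors (0.14) were higher, and none passed the adjusted test. Wee1 was 7.51, 7.26 and 7.94 in DIO and 6.47, 6.59 and 7.24 in control, groups that just did not overlap (difference 0.80, SE 0.23, limma adjusted p = 0.591). Orc5, another origin recognition subunit, differed by 0.32 (SE 0.12), Cenpi of the inner kinetochore by 0.73 (SE 0.30) and Cdkn1a, which encodes the inhibitor p21, by 0.70 (SE 0.28). Both this comparison and the one of DIO + HMB with DIO use the same 3 DIO tumors, so a high or low DIO tumor moves both.

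With HMB on the control diet the direction of the set depended on the scaling. In control + HMB against control 15 of 19 S phase genes were higher (median 0.15) and 18 of 24 M phase genes (median 0.06), but the medians were 0.015 and -0.076 with each array centered on its median, -0.0078 and -0.038 after quantile normalization of the genes, and -0.19 and -0.30 with the array's SD as a covariate. The array SD was 2.51 to 2.54 in control and 2.57 to 2.62 in control + HMB. These ranges do not overlap, so the covariate and HMB cannot be told apart here. Single tumors moved the S phase and M phase medians as well, to 0.068 and -0.014 without control replicate 1, 0.26 and 0.12 without control replicate 3, 0.12 and 0.029 without control + HMB replicate 1 and 0.11 and 0.097 without control + HMB replicate 2. Over all genes the median was 0.04 and 55.4% were higher, and centering moved that median to -0.10. The adjusted test called 0 members (0% of all genes, lowest adjusted p of a member 0.488), and 0 members had an unadjusted p under 0.05 in either direction, against 7.22% higher and 4.22% lower of all genes. Mcm3 and Chek1 were higher without overlap and 0 members lower, against 11.4% and 6.07%. Mcm3 was 9.02, 9.13 and 8.70 in control + HMB and 8.17, 8.57 and 8.58 in control (difference 0.51, SE 0.27), and Chek1, the kinase of the replication checkpoint, 6.40, 6.31 and 6.30 in control + HMB and 5.67, 5.97 and 6.03 in control (0.45, SE 0.26). Both differences were below 0 with the array's SD as a covariate, as were those of Cdc45 (0.33, SE 0.22, and 0.10 without control replicate 1), Kif20a (0.32, SE 0.25), the spindle assembly factor Tpx2 (0.33, SE 0.26) and Mki67 (0.11, SE 0.16). Ccnb2 differed by -0.22 (SE 0.19), Top2a by -0.02 (SE 0.18) and Ccnd1 by 0.04 (SE 0.14). Of the marker lists, 9 of 10 B cell, 10 of 10 macrophage and 9 of 9 adipocyte markers were higher in control + HMB, and the B cell score ran from -0.26 to 0.30 in control + HMB and -0.34 to -0.30 in control, and their part in the result was not tested.

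DIO + HMB tumors were compared with control + HMB tumors as well, which asks for the diet under HMB. Of the S phase genes 15 of 19 were lower in DIO + HMB (median -0.09) and of the M phase genes 23 of 24 (median -0.11), against a median of -0.02 over all genes, of which 44% were higher. No member was called (0% of all genes), none had an unadjusted p under 0.05 (0.933% of all genes higher, 1.92% lower) and none was without overlap (1.27% higher, 3.07% lower). Chek1 was 5.59, 5.29, 6.19 and 6.44 in DIO + HMB and 6.40, 6.31 and 6.30 in control + HMB, a difference of -0.46 (SE 0.24). The 3 control + HMB tumors lay close together inside the wide range of DIO + HMB. Cdc45 (-0.27), Gins1 (-0.26), Nuf2 (-0.25), Ndc80 (-0.24), Kif23 (-0.23), Top2a (-0.13), Mki67 (-0.07) and Ccnd1 (-0.16) were among the other differences. Of the tumors left out singly, only DIO + HMB replicate 2 moved the medians past 0. Without DIO + HMB replicate 2 the S phase and M phase medians were 0.044 and 0.013, without replicate 1 they were -0.014 and -0.022, without replicate 3 they were -0.14 and -0.21 and without replicate 4 they were -0.18 and -0.23. Without both DIO + HMB replicates 1 and 2, the tumors lowest in M phase score, they were 0.15 and 0.19. Among the genes, Chek1 was -0.26 without DIO + HMB replicate 2.

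Against control, DIO + HMB tumors were near even. Of the S phase genes 9 of 19 (median -0.0023) and of the M phase genes 8 of 24 (median -0.05) were higher, against 51.2% of all genes (median 0.01). The test called 0 members (0% of all genes), 0 had an unadjusted p under 0.05 (8% of all genes higher, 6.76% lower) and 0 were without overlap (8.35% higher, 6.59% lower). Lowest in p were Cenpf, a large kinetochore protein (-0.38, SE 0.18), and Tyms (-0.37, SE 0.21), while Mki67 differed by 0.03 (below 0 under each other scaling), Top2a by -0.15 and Ccnd1 by -0.12. Of the 6 MCM genes 5 were higher (median 0.18), but that median was 0.0063 with each array centered on its median and -0.31 with the array's SD as a covariate, and the S phase and M phase medians were -0.17 and -0.22 after centering. The array SD was 2.58 to 2.62 in DIO + HMB and 2.51 to 2.54 in control, so the covariate and the group cannot be told apart here. Leaving out 1 tumor at a time gave -0.12 to 0.15 for S phase and -0.19 to 0.076 for M phase genes, the upper ends without DIO + HMB replicate 2 and the lower ends without control replicate 1 and DIO + HMB replicate 4. Without both DIO + HMB replicates 1 and 2, the tumors lowest in M phase score, the medians were 0.29 for S phase and 0.23 for M phase genes.

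The interaction, the HMB difference in obese mice minus that on the control diet, was below 0 for 17 of 19 S phase genes (median -0.34) and 24 of 24 M phase genes (median -0.32), against a median of -0.05 over all genes, of which 43.4% were above 0. In limma 0 members passed (0% of all genes, adjusted p = 0.933). At an unadjusted p under 0.05, 2 were below 0 and 0 above, against 3.19% and 1.63% of all genes. They were Cdc45 (-0.72, SE 0.31) and Ndc80 (-0.62, SE 0.27). Cdc45, which was 6.57, 6.47, 6.996 and 6.99 in DIO + HMB and 7.40, 6.78 and 7.26 in DIO, was 7.12, 7.03 and 6.94 in control + HMB and 6.25, 6.85 and 7.002 in control. The low control value was that of replicate 1, the tumor with the second lowest S phase score. Mki67 gave -0.39, Top2a -0.36 and Ccnd1 -0.12. With the array's SD as a covariate the S phase and M phase medians were -0.18 and -0.15. Leaving out 1 tumor at a time gave -0.45 to -0.20 for S phase and -0.49 to -0.20 for M phase genes, with the values nearest 0 without control replicate 1 (-0.20 and -0.24), DIO + HMB replicate 2 (-0.21 and -0.20) and DIO replicate 3 (-0.24 and -0.21), and the M phase median was farthest from 0 without DIO replicate 2. Without DIO + HMB replicates 1 and 2, the tumors lowest in M phase score, the medians were -0.08 and -0.03. Without DIO replicate 3, the highest, as well they were 0.01 and 0.11.

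Ordered by level, DIO had the highest group mean for 21 of 24 M phase and 11 of 19 S phase genes, and DIO + HMB the lowest for 16 and 10, control for 8 and 8, and control + HMB for 0 of 43. None of the neighbors in that order was separated by the adjusted test. The spread was itself unequal between groups. DIO + HMB had the largest SD of the 4 groups for 26 of 43 genes, with a median SD of 0.34, against 0.27 in DIO, 0.13 in control + HMB and 0.20 in control, and 3 or 4 tumors stand behind each. The S phase score minus the M phase score was 0.06 ± 0.06 in DIO + HMB, -0.06 ± 0.10 in DIO, 0.04 ± 0.08 in control + HMB and -0.05 ± 0.04 in control (SD), so that S phase genes were relatively higher in both HMB groups, with ranges that overlapped. Those differences are small beside the shared movement of both sets. At the median, a 95% interval reached 0.43 to either side of a difference between DIO + HMB and another group. It reached 0.46 between the other groups and 0.63 for the interaction. Differences of about that size on the log2 scale could therefore not be told from 0. The intervals use a spread pooled over the groups. They therefore do not reflect the wider spread within DIO + HMB or the narrower spread within control + HMB.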

How the data were processed

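Tumor RNA of 13 mice was measured on Affymetrix Mouse Gene ST arrays. RMA was run by the authors, and the deposited values are log2 probe set values, which were used as they stand; RMA makes arrays alike in distribution, so a shift of most genes would be removed. Versions of the authors' tools, scan batches and RNA quality values: not given in the sources used here. For each gene the probe set with 1 symbol and the highest mean over the arrays was kept (22180 genes of 41345 probe sets, none left out for low signal). One limma model (version 3.58.1, R 4.3.3, lmFit and eBayes) with a mean for each of 4 groups (9 residual degrees of freedom) gave 6 two-sided comparisons, with p-values adjusted by Benjamini-Hochberg over all genes and a threshold of 0.05. It was also run on simulated data in which genes varied independently and with the same spread in every group. The members here vary together and with unequal spread, so that run does not show how well differences of their size are found. Replicate numbers were not treated as pairs, and the sources used here do not say what they mark. Deviations of same-numbered arrays of different groups correlated at -0.19 to 0.30, over 0.1 in 3 of 18 pairs. Those of differently numbered arrays correlated at -0.34 to 0.31, over 0.1 in 11 of 45 pairs.

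The members and gene lists were chosen with earlier results of these data known. Named are Mki67, Top2a and Ccnd1 throughout, the 3 S phase and 3 M phase members of lowest unadjusted p in the 4 main comparisons, the 2 of lowest p in the other 2, and 1 gene for each further list; other members are named by role or for their place in a list. Lists of further replication and mitosis genes, cycle regulators, inhibitors and markers of other cell types were counted with no set test. Alternatives were another scaling, the mean of probe sets, a filter on dim genes, other priors, the methods' t-test, array SD as a covariate, a replicate block and leaving out tumors. The number of arrays limits the precision, and the p-values set differences of group means against the spread between single mice. Promoters are RefSeq sequences of build GRCm38.p6, searched with Python 3.11.15.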

Additional observations from a re-analysis of the deposited data

How the results depend on the processing

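No member passed the adjusted test in any of 134 fits (the alternatives times their comparisons), where the lowest adjusted p was 0.217. Of 1161 values of named genes 1116 kept their sign and 45 did not. Many of these values could not change, as where the tumor left out was in neither group compared or only the prior differed. The count is therefore no measure of stability. Values below are log2 differences, and the cause of each change was not tested. With the array's SD as a covariate, control + HMB against control gave medians of -0.19 (S phase) and -0.30 (M phase), with Mki67 -0.093, Ccnd1 -0.13, Mcm3 -0.22, Chek1 -0.022, Cdc45 -0.24, Kif20a -0.40 and Tpx2 -0.38, and DIO + HMB against control medians of -0.28 and -0.45, with Mki67 -0.18. The array SD did not overlap between the groups of either comparison, so that covariate cannot be told apart from the group. Median centering gave Mki67 -0.031 and Ccnd1 -0.096 in control + HMB against control and Mki67 -0.14 in DIO + HMB against control. It moved the median of all genes to -0.10 in control + HMB against control, -0.13 in DIO + HMB against DIO and -0.16 in DIO + HMB against control. Quantile normalization gave Ccnd1 -0.036 in control + HMB against control and Mki67 -0.041 in DIO + HMB against control.

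Leaving out several tumors together was chosen after seeing the data. It took out the tumors of lowest M phase score, DIO + HMB replicates 1 and 2. The tumor of highest M phase score, DIO replicate 3, was then taken out too. Shifts in this direction follow from that choice. Without both DIO + HMB replicates 1 and 2, the S and M phase medians were 0.15 and 0.19 against control + HMB (Mki67 0.13, Top2a 0.066, Ccnd1 0.015, Ndc80 0.064, Nuf2 0.10, Kif23 0.069), 0.29 and 0.23 against control (Top2a 0.042, Ccnd1 0.056), and -0.083 and -0.025 in the interaction (Ccnd1 0.058). Against DIO the M phase median was 0.013 and Ccnd1 0.0995. Without DIO replicate 3 as well, the values against control + HMB and control were the same, against DIO the medians were 0.13 and 0.11 (Mki67 0.012, Ccnd1 0.13, Bub1 0.028), and in the interaction 0.011 and 0.11 (Ccnd1 0.091).

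Leaving out 1 tumor at a time gave -0.0782 to 0.000974 for Ccnd1 in DIO against control, -0.15 to 0.088 for Top2a in control + HMB against control, -0.14 to 0.026 for Ccnd1 in DIO + HMB against DIO, -0.16 to 0.0066 for Mki67 in DIO + HMB against control + HMB, and -0.036 to 0.11 for Mki67 in DIO + HMB against control. The replicate block, which takes DIO + HMB replicate 4 out of the comparison, gave Mki67 -0.034 in DIO + HMB against control and M phase medians of -0.40 in DIO + HMB against DIO and -0.23 in DIO + HMB against control + HMB, with 0 members called. The sources used here do not say whether numbers shared by tumors mark pairs. The mean of probe sets, the filter on dim genes, the trended robust prior and the methods' t-test could not move the medians. Of the members, 0 had several single-symbol probe sets, and all 43 were above the filter. The prior and the t-test change only the estimated spread.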
